A study of Mus musculus with 9 samples.

Results

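Serpins are a family of proteins built on 1 shared fold, and most of them are inhibitors that a target protease cuts at an exposed stretch, the reactive centre loop. The cut traps the protease in a stable complex and destroys both partners. The liver is the main source of the serpins of blood plasma, among them alpha-1-antitrypsin, antithrombin, the C1 inhibitor and alpha-2-antiplasmin, which restrain elastase, the clotting proteases, complement and plasmin. Some members carry hormones or assist protein folding and inhibit no protease.

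The members described here are the protein-coding genes of the deposited count table whose symbols are Serpin followed by a clade letter from a to i and a number, 63 of the 56748 genes listed. The libraries are of poly(A) RNA of whole liver. The mice were C57BL/6J males, 28 weeks old, that had eaten a high-fat diet over 20 weeks. The formoterol group held 5 mice given formoterol, a long-acting beta-adrenergic agonist, at 1 mg/kg by daily intraperitoneal injection over the final 4 weeks. The vehicle group held 4 mice on the same diet given DMSO in its place. Both groups carry the diet, and no livers from another diet were compared. Libraries held from 12336665 to 20339665 counts, and each was assigned to its group by the suffix of its column name.

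Of the 63 members, 28 had counts high enough to be tested, 14 had counts below that filter and 21 had no count in any library. A count of 0 allows a level of up to 0.146 to 0.247 CPM, depending on the library (3 counts, counting error only). Levels are in CPM, counts scaled to a fixed library total after TMM normalization, in all that follows. Clade A, the antitrypsin-like serpins, had 24 members, of which 15 were tested, and clade B, which acts mostly inside cells, had 28 members, of which 5 were tested. Tested members of the other clades were the only one of clades C, D, G and H, both of clade F and 2 of the 3 of clade E. Neither of the 2 members of clade I was tested. Clade A held 81.1% of the serpin counts of the 9 libraries and clade B 0.1%. On mm39, 23 of the 24 clade A genes lie on chromosome 12 between 103581045 and 104380588, and Serpina7 lies on the X chromosome. Clade B lies in groups of 12 genes on chromosome 1 and 16 on chromosome 13.

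The most abundant members include near-identical copies, so the letters that separate them are shown before their values. The first set below is the stretch of coding sequence for the reactive centre loop, 26 codons from the conserved hinge onward, in the 5 Serpina1 genes of the mouse that were tested. These genes encode alpha-1-antitrypsins. Sequences are from GENCODE M21 transcripts on GRCm38 and run 5′ to 3′ on the minus strand, in the last exon of each transcript, and capitals mark the positions where the 5 copies differ.
Serpina1a, chr12:103853753-103853830: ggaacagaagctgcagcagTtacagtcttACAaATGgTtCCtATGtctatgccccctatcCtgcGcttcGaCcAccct
Serpina1b, chr12:103728320-103728397: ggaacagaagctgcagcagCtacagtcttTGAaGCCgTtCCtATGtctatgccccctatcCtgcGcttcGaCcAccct
Serpina1c, chr12:103895090-103895167: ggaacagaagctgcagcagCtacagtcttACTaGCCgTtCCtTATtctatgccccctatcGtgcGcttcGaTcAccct
Serpina1d, chr12:103763758-103763835: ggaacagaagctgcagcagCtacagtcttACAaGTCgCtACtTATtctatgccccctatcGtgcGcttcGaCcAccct
Serpina1e, chr12:103947096-103947173: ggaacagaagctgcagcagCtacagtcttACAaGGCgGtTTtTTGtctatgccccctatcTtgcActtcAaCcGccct

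Over these 78 bases 18 positions differed among the 5 copies, and pairs differed at 5 to 12. The whole coding sequences were 96.3% to 98.5% identical in pairs. This bears on the counts, because a read from a shared stretch can be placed on several copies. Of all runs of 100 bases in the coding sequence, 80.9% of those of Serpina1e, 70% of those of Serpina1b and 66.7% of those of Serpina1d occurred in no transcript of another gene. For Serpina1c and Serpina1a the shares were 38.2% and 35.7%, and these copies shared 699 of 1140 such runs with each other. Values of the 5 copies are therefore uncertain, least for Serpina1e and most for Serpina1a and Serpina1c. In the table the span of Serpina1b also covers Serpina1d.

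The same stretch is shown for the 3 most abundant Serpina3 genes, relatives of alpha-1-antichymotrypsin, because their levels differ widely. These run on the plus strand of GRCm38, and capitals mark positions where the 3 differ.
Serpina3k, chr12:104345269-104345346: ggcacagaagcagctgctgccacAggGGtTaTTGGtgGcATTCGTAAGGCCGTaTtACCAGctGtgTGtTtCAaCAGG
Serpina3m, chr12:104393769-104393846: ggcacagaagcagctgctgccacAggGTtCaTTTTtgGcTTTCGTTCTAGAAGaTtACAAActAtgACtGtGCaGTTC
Serpina3n, chr12:104413448-104413525: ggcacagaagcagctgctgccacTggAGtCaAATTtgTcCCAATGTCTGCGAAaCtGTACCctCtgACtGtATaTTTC

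Compared position by position, pairs of these 3 differed at 25 to 36 of the 78 bases, and their coding sequences were 82.7% to 91.1% identical. Of their runs of 100 bases, 91.8% for Serpina3k and for Serpina3m and 99.7% for Serpina3n occurred in no other gene. The spans of Serpina3k and Serpina3m overlap in the table, on the same strand.

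No serpin gene passed the test of formoterol against vehicle when all 9 libraries were used (0 of 28 by edgeR's quasi-likelihood test with Benjamini-Hochberg adjustment over 13042 genes, of which 0% were called). Among the 28 members, 22 had a positive log2 fold change, with a median of 0.25, against 48.7% of all genes tested and a median of −0.01. Scaled by library totals with no factors, which moved the median of all genes to −0.16, 17 members were positive and 11 negative. At an unadjusted p under 0.05 there were 6 members higher and 1 lower in the formoterol livers. Over all genes tested 14.6% reached that p, 9.03% higher and 5.53% lower. The 6 higher members were Serpina11, Serpina1c, Serpina3k, Serpinf2, Serpina1a and Serpina10. The 1 lower member was at a low level, and its passing of the filter on low counts rested mainly on the vehicle libraries. It is also the 1 lower call given below with sample quality weights and without formoterol library M49. The groups did not overlap for 1 member, Serpina11, against 4.84% of all genes tested (2.45% higher and 2.38% lower). DESeq2 called 3 members, all higher (5.82% of the genes it gave an adjusted p, 4.79% higher). Those were Serpina11 (adjusted p = 0.000727), Serpina1c (adjusted p = 0.00905) and Serpina3k (adjusted p = 0.0247). DESeq2 gave no adjusted p to members of low level, among them all tested clade B genes, so its base was fewer than the 28 members. By limma-voom with sample quality weights 9 members passed, 8 higher and 1 lower, against 10.5% of all genes (6.07% higher and 4.46% lower), and without such weights 0 passed.

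**Figure D1:**
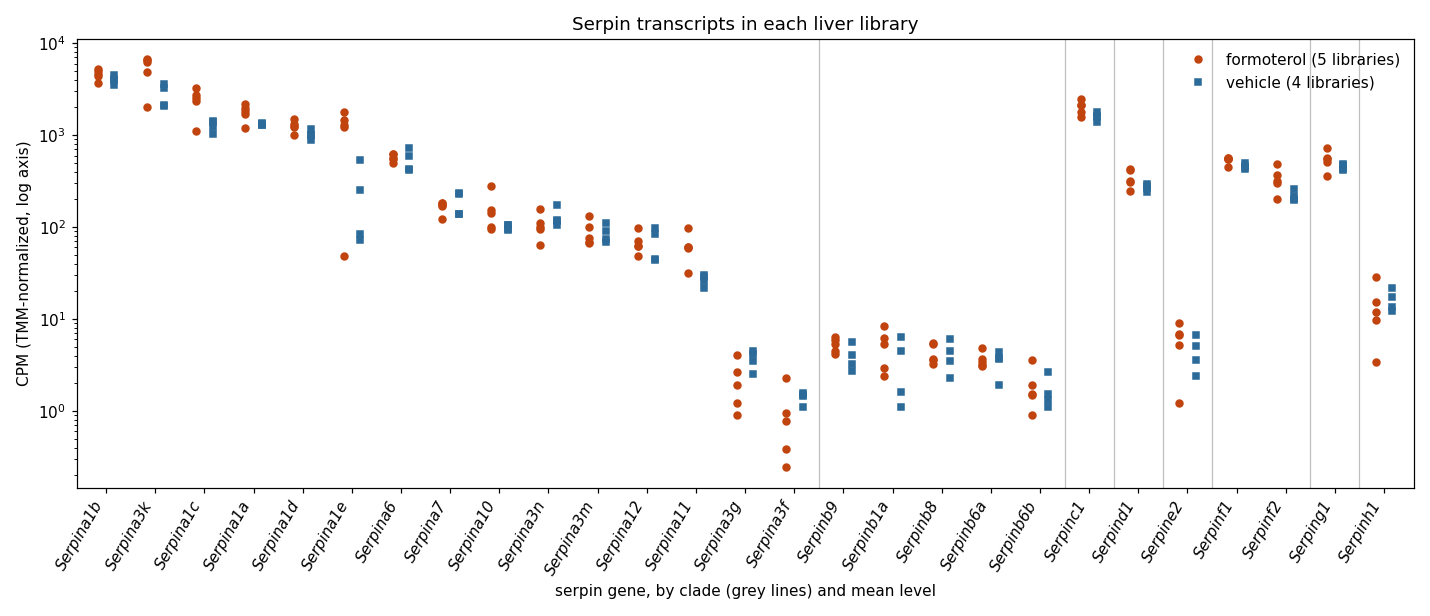
CPM of 27 tested serpin genes on a log axis, 1 point per library, with formoterol libraries as circles left of vehicle libraries as squares and grey lines between clades. The most abundant genes are of clades A, C, D, F and G, while every tested clade B gene stays below 10 CPM, and Serpina1e spans 47.9 to 1798 CPM among the formoterol libraries.

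One formoterol library, M49, is described apart from the other 4, and it was singled out with earlier results of these data known. M49 was the lowest formoterol library for 15 of the 28 members and lay within the vehicle range for 18. Formoterol library M46 was the highest formoterol library for 16 members, and such counts were not made over all genes. Without M49, edgeR called 6 members, 5 higher and 1 lower, against 5.51% of the genes tested there (3.47% higher and 2.04% lower). The groups then did not overlap for 12 members, 10 higher and 2 lower, against 14.4% of the genes (7.77% higher and 6.63% lower). Leaving out any other 1 library gave 0 calls among the serpins, against 0% of all genes, or 0.0303% without M60. Fold changes are given below with all 9 libraries, and also without M49 for the members whose call that changes.

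**Figure D2:**
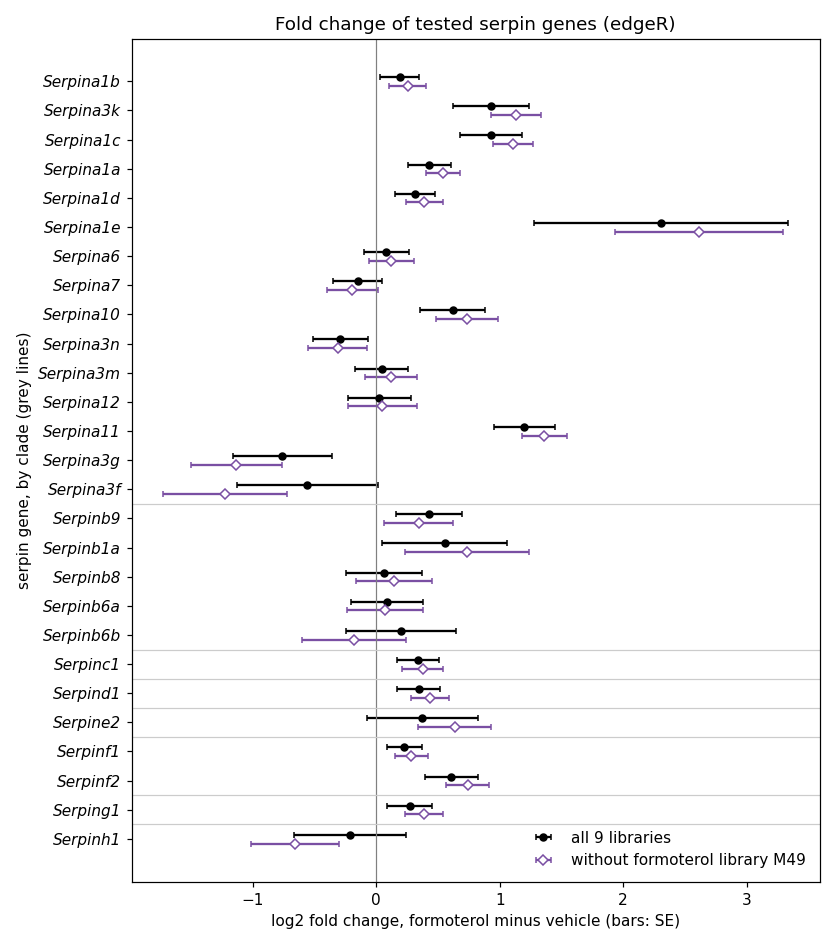
Log2 fold change of formoterol minus vehicle with its SE for 27 tested serpin genes by edgeR, with all 9 libraries (filled circles) and without formoterol library M49 (open diamonds). Serpina1e has the largest positive value at 2.31 with an SE of 1.03 and most genes lie between 0 and 1.

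The summed level of all serpin genes was 25982, 24359, 23100, 13225 and 20899 CPM in formoterol libraries M46, M47, M48, M49 and M50, against 15008, 13904, 15023 and 15297 CPM in vehicle libraries M56, M58, M59 and M60. Thus 4 formoterol libraries lay above every vehicle library and M49 lay below them all. All lists of values that follow keep this order of libraries. In raw counts, serpins made up 2.41%, 2.36%, 2.14%, 1.48% and 1.75% of the formoterol libraries, against 1.68%, 1.37%, 1.56% and 1.69% of the vehicle libraries, so M49 lay within the vehicle range and M50 just above it on that scale. The mitochondrially encoded share of counts, which scales such shares, was 16.4% to 38.6% in formoterol libraries and 23.4% to 34.0% in vehicle libraries, and it was highest in M50.

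Hepatocyte markers stand beside these values. Of 12 tested, edgeR called 0, DESeq2 called 2 (Apoa1 and Ass1), and an unadjusted p under 0.05 was reached by 4 that were higher and 0 that were lower, or by 2 without M47 or M59. With all 9 libraries 9.03% of all genes tested were higher and 5.53% lower at that p. DESeq2 called 4.79% of the genes it gave an adjusted p as higher. The median log2 fold change was 0.15, 9 of the 12 were positive, and Apob, Fga and Tat had negative values of −0.20, −0.09 and −0.07. Without M49 edgeR called Apoa1 and Cps1, both higher, against 3.47% of all genes called higher there. The summed level of 12 hepatocyte markers was 106468 to 147854 CPM in formoterol libraries and 91830 to 106262 CPM in vehicle libraries, and M49, the lowest formoterol library at 106468 CPM, lay just above the highest vehicle library at 106262 CPM. Most of the sum was albumin, Alb, with 85075 CPM on average in formoterol livers and 66918 CPM in vehicle livers (log2 fold change 0.35, edgeR adjusted p = 0.373). Relative to that sum, serpins came to 19.0%, 19.5%, 15.6%, 12.4% and 18.8% in formoterol libraries, against 16.3%, 14.2%, 15.8% and 14.4% in vehicle libraries, so the groups overlapped and M49 was the lowest of the 9. In bulk liver fewer cells of a type and less RNA per cell cannot be told apart. The part of hepatocyte content in the serpin values was not tested beyond that ratio.

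Serpina11 (ENSMUSG00000063232; chromosome 12, 103946502 to 103956216 on mm39, minus strand) had the smallest p of the family, rank 21 of the 13042 genes. Its levels were 96.7, 60.7, 60.4, 31.4 and 58.6 CPM in the formoterol libraries, against 30.4, 21.7, 28.8 and 26.1 CPM in the vehicle libraries. Every formoterol library lay above every vehicle library, with M49 only just above the vehicle library M56 and M46 the highest. The means were 61.6 ± 23.2 CPM in formoterol livers and 26.8 ± 3.79 CPM in vehicle livers (SD, n = 5 and n = 4; log2 fold change 1.20, SE 0.25, adjusted p by edgeR = 0.151). Without M49 the log2 fold change was 1.36 and the gene passed (edgeR adjusted p = 0.00157). Its coding sequence shares 571 of 1182 runs of 100 bases with Gm28577, an overlapping lncRNA on the same strand that had 0 counts in these libraries.

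The 5 Serpina1 copies all had positive log2 fold changes, of unequal size. Their summed level was 13072, 12515, 11650, 7031 and 11742 CPM in the formoterol libraries, against 7402, 7806, 7735 and 8514 CPM in the vehicle libraries. In this sum 4 formoterol libraries lay above every vehicle library while M49 lay below them all. Relative to the hepatocyte marker sum it was 9.57%, 10.01%, 7.88%, 6.604% and 10.6% in formoterol libraries, against 8.06%, 7.96%, 8.11% and 8.01% in vehicle libraries. On that scale the groups overlapped, and the vehicle libraries were close to each other.

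Serpina1b (chromosome 12, 103694415 to 103796632) was the most abundant copy. It had 5044, 5199, 4636, 3701 and 4395 CPM in the formoterol libraries, against 3536, 4049, 4026 and 4521 CPM in the vehicle libraries (log2 fold change 0.19, SE 0.16, adjusted p by edgeR = 0.628). The groups overlapped, and this was the smallest fold change of the 5 copies. Serpina1c (103861185 to 103871146) had 3251, 2759, 2562, 1096 and 2355 CPM in the formoterol libraries, against 1032, 1378, 1219 and 1425 CPM in the vehicle libraries. All formoterol libraries but M49 lay above the vehicle libraries, and M49 lay among them. The means were 2405 ± 803 CPM in formoterol livers and 1264 ± 178 CPM in vehicle livers (SD, n = 5 and n = 4; log2 fold change 0.93, SE 0.25, adjusted p by edgeR = 0.172), and without M49 the log2 fold change was 1.11 and the gene passed (edgeR adjusted p = 0.00247).

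Serpina1a (103819848 to 103829821) had 2158, 1833, 1715, 1194 and 1964 CPM in the formoterol libraries, against 1289.6, 1296, 1358 and 1320.0 CPM in the vehicle libraries. The vehicle libraries lay within a narrow range, with 4 formoterol libraries above it and M49 below it. The log2 fold change was 0.43 (SE 0.18, adjusted p by edgeR = 0.28), and without M49 it was 0.54 and passed (edgeR adjusted p = 0.0402). Serpina1d (103729853 to 103739851) had 1326, 1511, 1258, 992 and 1229.6 CPM in the formoterol libraries, against 1012, 998, 879.7 and 1174 CPM in the vehicle libraries (log2 fold change 0.31, SE 0.16, adjusted p by edgeR = 0.392). Again 4 formoterol libraries lay above the vehicle libraries and M49 lay among them. Serpina1f, a further gene of this series of copies, had no count in any library.

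Serpina1e (103913190 to 103925234) was the most variable member of at least 20 CPM. It had 1293, 1213, 1478, 47.9 and 1798 CPM in the formoterol libraries, against 532, 84.9, 252 and 73.2 CPM in the vehicle libraries. Within the formoterol group M49 was the lowest of all 9 libraries and the other 4 were the highest, and within the vehicle group M56 and M59 stood above M58 and M60. The highest library exceeded the lowest 37.5-fold among formoterol libraries and 7.26-fold among vehicle libraries, while no other member of at least 20 CPM spanned more than 4.45-fold over all 9. The means were 1166 ± 664 CPM in formoterol livers and 236 ± 214 CPM in vehicle livers (SD, n = 5 and n = 4; log2 fold change 2.31, SE 1.03, adjusted p by edgeR = 0.364). Despite the size of the fold change the gene did not pass, nor did it without M49 (log2 fold change 2.61, adjusted p by edgeR = 0.0762). Serpina1e made up 9.89%, 9.69%, 12.7%, 0.68% and 15.3% of the Serpina1 sum in formoterol libraries, against 7.18%, 1.09%, 3.26% and 0.86% in vehicle libraries.

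The promoters of the copies are shown because the copies differ in level and in spread. The RefSeq table used here (GRCm38.p6) held 54 of the 63 members, 21 of the 28 tested. The stretch on which they are aligned begins 78 bases before the annotated start in Serpina1e and 16 to 27 bases before it in the other copies. The sequences of those other copies thus run past the annotated start, and that of Serpina1e does not. Each stretch below is 120 bases on the minus strand, 5′ to 3′, aligned on a stretch they share, and capitals mark the positions where the 5 copies differ.
Serpina1a, chr12:103863591-103863710: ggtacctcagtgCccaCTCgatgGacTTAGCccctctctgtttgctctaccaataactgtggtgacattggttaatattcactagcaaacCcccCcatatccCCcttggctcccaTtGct
Serpina1b, chr12:103738166-103738285: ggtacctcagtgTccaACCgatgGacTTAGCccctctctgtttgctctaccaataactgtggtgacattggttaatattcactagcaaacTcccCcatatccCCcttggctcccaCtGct
Serpina1c, chr12:103904928-103905047: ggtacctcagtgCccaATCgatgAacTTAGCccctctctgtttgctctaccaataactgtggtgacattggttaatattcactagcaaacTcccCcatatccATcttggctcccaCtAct
Serpina1d, chr12:103773600-103773719: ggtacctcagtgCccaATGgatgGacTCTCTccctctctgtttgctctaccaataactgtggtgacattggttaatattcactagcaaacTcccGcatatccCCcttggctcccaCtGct
Serpina1e, chr12:103956926-103957045: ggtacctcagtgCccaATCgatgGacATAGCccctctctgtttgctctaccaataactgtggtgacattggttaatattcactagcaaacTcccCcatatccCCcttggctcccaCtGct

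Of the 120 positions 104 were identical in all 5 copies and 16 differed. Pairs differed at 3 to 10 positions, and the pair with the fewest differences was Serpina1b and Serpina1e. Whether differences within these 120 bases bear on the levels or fold changes of the copies was not tested.

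**Figure D3:**
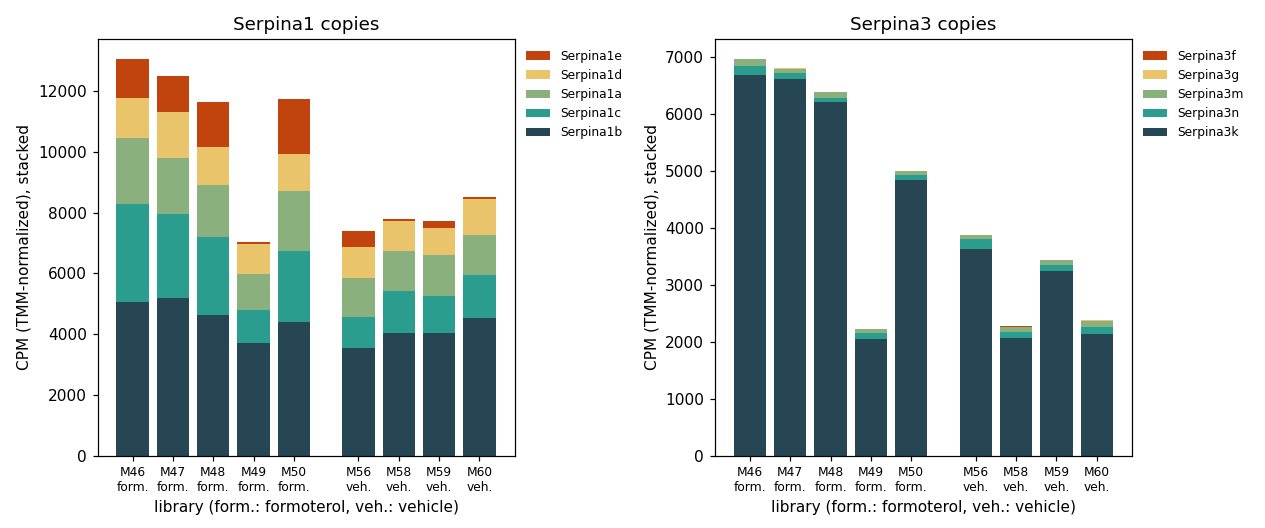
Stacked CPM of the Serpina1 copies (left) and of the Serpina3 copies (right) in each library, with the 5 formoterol libraries left of the 4 vehicle libraries. M49 has a lower stack than every vehicle library in both panels, and the Serpina1e segment is between 47.9 and 84.9 CPM in M49, M58 and M60 but 1213 CPM or more in the other formoterol libraries.

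Serpina3k (chromosome 12, 104304745 to 104312403), known as contrapsin in the mouse, carried most of the Serpina3 signal. It had 6684, 6623, 6219, 2040.0 and 4833 CPM in the formoterol libraries, against 3632, 2068, 3239 and 2141 CPM in the vehicle libraries. The 4 formoterol libraries other than M49 exceeded every vehicle library, and M49 was the lowest of the 9. The means were 5279.8 ± 1959 CPM in formoterol livers and 2770.0 ± 785 CPM in vehicle livers (SD, n = 5 and n = 4; log2 fold change 0.93, SE 0.31, adjusted p by edgeR = 0.213), and without M49 the log2 fold change was 1.13 and the gene passed (edgeR adjusted p = 0.00825). It made up 91.7% to 97.4% of the summed Serpina3 level in formoterol libraries and 90.1% to 94.3% in vehicle libraries.

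The other tested Serpina3 genes did not share that pattern. Serpina3n, which rises in inflamed mouse liver, had 105 ± 33.3 CPM in formoterol livers and 129 ± 31.4 CPM in vehicle livers (log2 fold change −0.29, SE 0.22), and 3 formoterol libraries lay below every vehicle library. Serpina3m had 88.4 ± 27.0 CPM in formoterol livers and 85.7 ± 19.1 CPM in vehicle livers (log2 fold change 0.04, SE 0.21, with a sign that depended on the scaling). Serpina3g, an inhibitor that acts inside cells, had 2.15 ± 1.26 CPM in formoterol livers and 3.68 ± 0.849 CPM in vehicle livers (log2 fold change −0.76, SE 0.40). Serpina3f had 0.929 ± 0.812 CPM in formoterol livers and 1.41 ± 0.204 CPM in vehicle livers (log2 fold change −0.56, SE 0.57), with M49 the highest of the 9 libraries at 2.29 CPM and the other 4 formoterol libraries below every vehicle library. None of these 4 passed with all libraries or without M49 (edgeR adjusted p of 0.397 or more with all libraries and 0.0803 or more without M49). Of the remaining Serpina3 genes, Serpina3b, Serpina3c and Serpina3i had 19, 1 and 11 counts over the 9 libraries, and Serpina3a and Serpina3j had none. The 15 counts of Serpina3b in vehicle library M56 and 4 in M49 made up all of its counts.

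Acute phase genes, fixed as a list because Serpina3 genes are often read with them, included 24 tested genes. None was called by edgeR, 4 higher and 0 lower had an unadjusted p under 0.05, and the median log2 fold change was 0.44. Over all genes 14.6% had such a p. The count was 7 without M49 and 2 without M47, M58 or M59, and 2 under library totals. Orm1, an acute phase glycoprotein, had 738 ± 343 CPM in formoterol livers and 401 ± 47.99 CPM in vehicle livers (SD, n = 5 and n = 4; edgeR adjusted p = 0.188). DESeq2 called Orm1 and Saa4 (adjusted p = 0.0203 and 0.0351), and without M49 edgeR called the same pair, both higher (adjusted p = 0.0307 and 0.0259). Of all genes, DESeq2 called 4.79% higher and edgeR without M49 called 3.47% higher. The summed level of the list was 33254 CPM in M46 and 15216 to 18902 CPM in the other formoterol libraries, against 14270 to 16965 CPM in the vehicle libraries. M46 thus stood far above all others in this list, as it was the highest formoterol library for most serpins, and its part in the serpin values was not tested beyond leaving it out.

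Hormone carriers of clade A did not differ beyond their spread. Serpina6 (chromosome 12, 103612889 to 103623471) encodes corticosteroid-binding globulin and inhibits no protease. It had 631, 627, 562, 498 and 551 CPM in the formoterol libraries, against 415, 593, 432 and 732 CPM in the vehicle libraries. The vehicle libraries M56 and M59 were the lowest of the 9 and M60 the highest, so all formoterol libraries lay within the vehicle range (log2 fold change 0.08, SE 0.18, adjusted p by edgeR = 0.883). Serpina7, thyroxine-binding globulin, had 167 ± 25.4 CPM in formoterol livers and 185 ± 54.3 CPM in vehicle livers (SD, n = 5 and n = 4; log2 fold change −0.15, SE 0.20, adjusted p by edgeR = 0.77).

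Serpina10, the inhibitor of factor Xa that needs protein Z, had 277, 154, 141, 99.1 and 95.7 CPM in the formoterol libraries, against 93.7, 94.9, 105 and 105 CPM in the vehicle libraries. M46, M47 and M48 lay above the vehicle libraries while M49 and M50 lay among them, and M46 was far the highest. The log2 fold change was 0.62 (SE 0.27, adjusted p by edgeR = 0.304), and it was 0.29 without M46. Proz, which encodes protein Z itself, had 551 ± 113 CPM in formoterol livers and 332 ± 26.1 CPM in vehicle livers (SD, n = 5 and n = 4; log2 fold change 0.73, SE 0.17, adjusted p by edgeR = 0.159, DESeq2 adjusted p = 0.00343). F10, the gene of the protease they act on, had 313 ± 54.5 CPM in formoterol livers and 213 ± 34.8 CPM in vehicle livers (SD, n = 5 and n = 4; edgeR adjusted p = 0.191, DESeq2 adjusted p = 0.0358). Proz and F10 passed without M49, both higher (edgeR adjusted p = 0.011 and 0.0346). Serpina12, known as vaspin, had 48.6, 70.6, 97.1, 62.7 and 62.3 CPM in the formoterol libraries, against 83.1, 43.9, 96.7 and 45.0 CPM in the vehicle libraries (log2 fold change 0.02, SE 0.25, adjusted p by edgeR = 0.979). Both groups covered nearly the same range, and the sign of that fold change depended on the scaling.

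Serpinc1 (chromosome 1, 160806155 to 160833433) encodes antithrombin, the main inhibitor of thrombin and factor Xa. It had 2474, 2105, 2146, 1788 and 1576 CPM in the formoterol libraries, against 1404, 1626, 1556 and 1805 CPM in the vehicle libraries. M46, M47 and M48 lay above every vehicle library, and M49 and M50 lay among them (log2 fold change 0.34, SE 0.17, adjusted p by edgeR = 0.379). Serpind1, heparin cofactor II, another thrombin inhibitor, had 342 ± 75.3 CPM in formoterol livers and 270.2 ± 22.4 CPM in vehicle livers (SD, n = 5 and n = 4; log2 fold change 0.34, SE 0.17, adjusted p by edgeR = 0.387), with M49 within the vehicle range. Serping1, the C1 inhibitor of complement and of the contact system, had 728, 566, 550.3, 357 and 505 CPM in the formoterol libraries, against 485, 419, 425 and 469 CPM in the vehicle libraries. All formoterol libraries but M49 lay above the vehicle libraries and M49 lay below them (log2 fold change 0.27, SE 0.18, adjusted p by edgeR = 0.532). Serpinc1 and Serpind1 overlap genes of the other strand in the table, and with no stated strand setting reads of such pairs cannot be told apart.

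Both clade F genes lie on chromosome 11, and their spans do not overlap. Serpinf2 (75322558 to 75330417) encodes alpha-2-antiplasmin, the fast inhibitor of plasmin. It had 485, 368, 319.7, 203 and 298 CPM in the formoterol libraries, against 204, 197, 216 and 261 CPM in the vehicle libraries. M46 was the highest and M49 alone lay among the vehicle libraries. The means were 335 ± 103 CPM in formoterol livers and 219.6 ± 28.9 CPM in vehicle livers (SD, n = 5 and n = 4; log2 fold change 0.61, SE 0.21, adjusted p by edgeR = 0.223), and without M49 the log2 fold change was 0.74 and the gene passed (edgeR adjusted p = 0.0284). Serpinf1 (75300595 to 75313527) encodes pigment epithelium-derived factor, which inhibits no protease. It had 549, 564, 564, 445 and 546 CPM in the formoterol libraries, against 456, 423, 451 and 493 CPM in the vehicle libraries (log2 fold change 0.23, SE 0.14, adjusted p by edgeR = 0.484). The 4 formoterol libraries other than M49 lay close together and above the vehicle libraries, and M49 lay among the vehicle libraries.

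**Figure D4:**
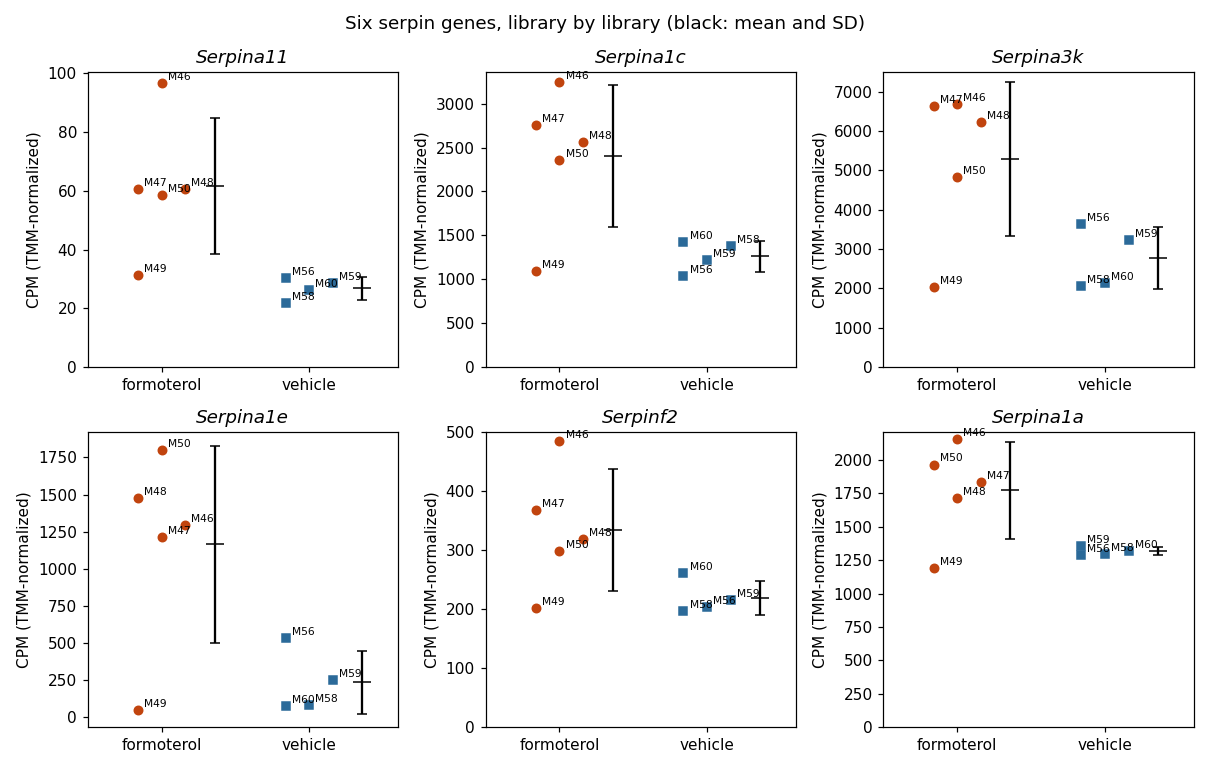
CPM of 6 serpin genes in each library, formoterol libraries left of vehicle libraries, with the mean and SD of each group in black. Formoterol library M49 lies at the vehicle level for Serpina1c and Serpinf2, just above it for Serpina11 and below every vehicle library for Serpina3k, Serpina1e and Serpina1a.

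Of clade E, Serpine2, which encodes protease nexin-1, an inhibitor of thrombin, had 5.82 ± 2.90 CPM in formoterol livers and 4.44 ± 1.87 CPM in vehicle livers (SD, n = 5 and n = 4; log2 fold change 0.37, SE 0.45), with M49 the lowest of the 9 libraries at 1.22 CPM.

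Serpinh1 (chromosome 7, 98994583 to 99002446) encodes HSP47, a chaperone that binds collagen in the endoplasmic reticulum and inhibits no protease. It had 3.42, 9.78, 12.1, 28.4 and 15.5 CPM in the formoterol libraries, against 17.2, 12.3, 21.7 and 13.4 CPM in the vehicle libraries. M46 was the lowest and M49 the highest of the 9, so the formoterol libraries lay on both sides of the vehicle group (log2 fold change −0.22, SE 0.45, adjusted p by edgeR = 0.87). Without M46 the log2 fold change was 0.01, and without M49 it was −0.66 (edgeR adjusted p = 0.288). Of 19 tested genes for collagens and their maturation, edgeR called none, 0 higher and 3 lower had an unadjusted p under 0.05, and the median log2 fold change was −0.37. Those 3 were Col5a2, Col4a1 and Col4a2, and over all genes 5.53% were lower at that p. The count was 11, all lower, without M49 and 1 without M47, M48, M50, M56 or M59, and 7 by limma-voom or 11 with quality weights. Without M49 edgeR called Col5a2, Col4a1 and Col1a2, all lower (adjusted p = 0.0123, 0.0318 and 0.0377). Calls over all genes also rose without M49, from 0 to 702, with 2.04% of genes called lower. The share of all genes at the unadjusted p without M49 is not given here.

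The summed markers of stellate cells, endothelial cells and cholangiocytes each had the same lowest and highest library as Serpinh1. The summed level of 12 stellate cell and fibroblast markers was 121.6, 280, 316, 461 and 373 CPM in formoterol libraries, against 336 to 420.2 CPM in vehicle libraries. The sum of 12 endothelial markers was 54.5 to 192 CPM in formoterol libraries and 142 to 172 CPM in vehicle libraries, again lowest in M46 and highest in M49. The sum of 16 Kupffer cell and macrophage markers was 70.6 to 182 CPM in formoterol libraries and 126 to 223 CPM in vehicle libraries. It was lowest in M46 and highest in vehicle library M56. The part of these cells in the values of Serpinh1 was not tested. Of the stellate cell, endothelial, Kupffer cell and macrophage markers none was at 0 in all libraries and edgeR called none. An unadjusted p under 0.05 was reached by 0 that were higher and 3 that were lower, against 5.53% of all genes lower. Those 3 were Wnt2, Lyz2 and Ccr2. Wnt2 had 0.220 ± 0.309 CPM in formoterol livers, near the floor of counting, and 1.05 ± 0.315 CPM in vehicle livers. Its passing of the filter on low counts thus rested mainly on the vehicle libraries. Lyz2 and Ccr2 passed by edgeR without M49, both lower, against 2.04% of all genes called lower there. Among markers of further cell types, the sum of 8 genes of the exocrine pancreas was 8.77 to 20.1 CPM in formoterol libraries and 5.10 to 8.02 CPM in vehicle libraries, with 3 of the 8 at 0 throughout and Cela1 making up most of it. Cela1 passed without M49 (edgeR, log2 fold change 1.37, adjusted p = 0.00559). Of the adipocyte markers only Cfd and Cidec had counts enough to be tested, and they went opposite ways. Cfd, which encodes adipsin, had 75.4 ± 32.6 CPM in formoterol livers and 11.7 ± 5.89 CPM in vehicle livers (SD, n = 5 and n = 4; log2 fold change 2.68, edgeR adjusted p = 0.158, DESeq2 adjusted p = 0.000176). Cidec, a lipid droplet protein gene, had 20.0 ± 18.4 CPM in formoterol livers and 50.1 ± 18.7 CPM in vehicle livers (SD, n = 5 and n = 4; log2 fold change −1.32, edgeR adjusted p = 0.355). Both passed by edgeR without M49, Cfd higher and Cidec lower, and Plin1 was at 0 in all libraries. In formoterol libraries the sums were 72.5 to 263 CPM for cholangiocytes, 6.02 to 13.9 CPM for lymphocytes, 292 to 555 CPM for erythroid cells and platelets and 73.4 to 125 CPM for adipocytes. In vehicle libraries they were 92.8 to 198 CPM for cholangiocytes, 5.96 to 12.5 CPM for lymphocytes, 187 to 589 CPM for erythroid cells and platelets and 41.3 to 94.9 CPM for adipocytes. Cfd and Cidec made up nearly all of the adipocyte marker sum in both groups, so it is not a measure of adipocytes.

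Clade B serpins, which act mostly within cells, stayed at low levels in bulk liver. The 5 tested were Serpinb9, an inhibitor of granzyme B, Serpinb1a, an inhibitor of neutrophil proteases, Serpinb8, Serpinb6a and Serpinb6b. Serpinb9 had 5.23 ± 0.917 CPM in formoterol livers and 3.89 ± 1.27 CPM in vehicle livers (log2 fold change 0.43, SE 0.27) and Serpinb1a had 5.04 ± 2.45 CPM in formoterol livers and 3.42 ± 2.51 CPM in vehicle livers (log2 fold change 0.55, SE 0.50; SD, n = 5 and n = 4). For Serpinb1a the vehicle libraries themselves ranged from 1.11 to 6.44 CPM. Serpinb8, Serpinb6a and Serpinb6b had mean levels of 4.25, 3.66 and 1.89 CPM in formoterol livers, against 4.05, 3.41 and 1.65 CPM in vehicle livers. The groups overlapped for all 5 clade B genes, none was at an unadjusted p under 0.05, so no difference beyond the spread between libraries was seen for them. Serpinb6a overlaps genes of the other strand, Nqo2 and Ripk1. The neutrophil markers Ly6g and Mpo had no count in any library, and the sum of 10 neutrophil markers was 1.17 to 2.53 CPM in formoterol libraries and 2.14 to 4.72 CPM in vehicle libraries. Of these 10 only S100a9 and Csf3r had counts enough to be tested, and Csf3r was lower at an unadjusted p under 0.05 (edgeR adjusted p = 0.227). Of the other 23 clade B genes, 17 had no count and 6 had 1 to 17 counts over the 9 libraries.

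Members below the filter are given by their counts. Serpina9 had 13, 5, 0, 8 and 2 counts in formoterol libraries, against 0, 1, 0 and 0 counts in vehicle libraries, 29 in all. It was not tested. In raw counts 4 of the 5 formoterol libraries exceeded every vehicle library, by as little as 2 counts in M50 against 1 in M58. Those are 0.118 and 0.0823 CPM, both below the floor of 3 counts. Serpinb10 had 3 counts over the formoterol libraries and 14 over the vehicle libraries, 9 of them in M60. Serpini1, neuroserpin, had 10 counts over the formoterol libraries and 5 over the vehicle libraries. The other untested members with counts held fewer than 10 over all libraries, apart from Serpina3b and Serpina3i above.

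Compared per length, by CPM divided by the gene's length in kb, 12 members averaged at least 100 CPM per kb over the 9 libraries. Serpina3k and Serpina1b led with 2567 ± 952 and 1903 ± 246 CPM per kb in formoterol livers, against 1347 ± 382 and 1670 ± 167 CPM per kb in vehicle livers (SD, n = 5 and n = 4). The order of these levels differed between groups for these genes, Serpina3k first in formoterol livers and Serpina1b first in vehicle livers, within spreads that overlap. Serpina1c had 1767 ± 590 CPM per kb in formoterol livers and 929 ± 131 CPM per kb in vehicle livers. Serpinc1 had 236 ± 40.6 CPM per kb in formoterol livers and 187 ± 19.5 CPM per kb in vehicle livers, since the table lists it at 8546 bases. Serpina1b is listed at 2415 bases, against 1361 to 1832 bases for the other tested Serpina1 copies. These levels, their order and the count of 12 rest on the listed lengths, which were not checked against the transcripts present here.

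Genes that work with serpins were read from lists and had no call by edgeR with all 9 libraries. Of 21 tested proteases that serpins inhibit, 5 higher and 0 lower had an unadjusted p under 0.05, against 14.6% of all genes, with a median log2 fold change of 0.18. F10, Klkb1, which encodes plasma prekallikrein, Prtn3 and Proc, which encodes protein C, had the smallest p. Prtn3, 1 of the 5, had 4.04 ± 6.27 CPM in formoterol livers and 0.247 ± 0.188 CPM in vehicle livers. It thus passed the filter on low counts only through formoterol libraries, and without M49 it did not pass that filter. Klkb1 had 391 ± 74.0 CPM in formoterol livers and 267 ± 30.3 CPM in vehicle livers, and Proc had 675 ± 80.7 CPM in formoterol livers and 484 ± 79.7 CPM in vehicle livers (SD, n = 5 and n = 4; edgeR adjusted p = 0.191 and 0.214, DESeq2 adjusted p = 0.0362 and 0.0484). Without M49 Klkb1 passed and Proc did not (edgeR adjusted p = 0.0212 and 0.058), and the count of 5 was 3 without M46 or M47. F2, the gene of prothrombin, had 1116 CPM on average in formoterol livers and 891 CPM in vehicle livers (log2 fold change 0.32). Of 7 tested cofactors and receptors, 2 were higher and 1 was lower at that p. Vtn, which encodes vitronectin, an adhesive protein of plasma, had 3305 ± 930 CPM in formoterol livers and 2052 ± 151 CPM in vehicle livers (SD, n = 5 and n = 4; log2 fold change 0.69, SE 0.20, adjusted p by edgeR = 0.182, DESeq2 adjusted p = 0.0206), and it passed without M49 (edgeR adjusted p = 0.015).

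Protease inhibitors outside the serpin family were read in the same way. Of 26 tested, an unadjusted p under 0.05 was reached by 7 that were higher and 3 that were lower, with a median log2 fold change of 0.19 against 0.25 for the serpins. One of the lower genes had a formoterol mean near the floor of counting, so its passing of the filter on low counts rested mainly on the vehicle libraries. Over all genes 9.03% were higher and 5.53% lower at that p, and the count of 10 was 6 without M46 or M56 and 5 without M59. Fetub had the smallest p (log2 fold change 1.06, SE 0.20, adjusted p by edgeR = 0.151), followed by Kng1, which encodes kininogen (log2 fold change 0.64, SE 0.18, adjusted p by edgeR = 0.173), Itih1 and Spint2. DESeq2 called Fetub, Kng1 and Itih1 (adjusted p = 0.000176, 0.014 and 0.0338). Without M49 edgeR called these 4 higher and Wfdc2 lower (adjusted p for Fetub 0.00208). Of all genes, DESeq2 called 4.79% higher, and edgeR without M49 called 3.47% higher and 2.04% lower. Of 17 tested regulators of hepatocyte genes, 2 were higher and 1 lower at that p, led by Foxa3 (log2 fold change 0.66, SE 0.23, adjusted p by edgeR = 0.220). That count of 3 was 5 without M49 and 1 without M46, M47, M48 or M56. The serpin counts were not tested against those of these lists.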

How the data were processed

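The authors deposited 1 table of gene counts for the 9 libraries. Per the submitters' processing notes, HISAT2 2.0.5, genome build mm39 and DESeq2 were used. Not given in the sources used here are the annotation release, the counting program, its strand setting and how it treated reads with several placements. Each column was assigned to formoterol or vehicle by the suffix of its name, which gives groups of 5 and 4, so every direction rests on that reading. No label says which libraries come from separate cages or days, so p-values measure the spread between these libraries.

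From the counts, edgeR 4.0.16 in R 4.3.3 (TMM, filterByExpr with a minimum count of 10, robust quasi-likelihood test, Benjamini-Hochberg threshold 0.05) was fitted to the 13042 of 56748 genes that passed the filter. CPM carry the TMM factors. Alternatives were other scalings and filters, DESeq2 1.42.0, limma 3.58.1 with voom, and leaving out each library. The scripts were tested on simulated data. Members and gene lists were chosen with earlier results of these data known. Per-library values are given for the 8 most abundant members, the 8 with the smallest p and 8 members chosen for their roles. In lists of related genes up to 4 with the smallest p are named, and any other gene named was chosen after its values were seen. Values of some genes are not reported here, and these genes stay in the counts of members and of lists. Depth was 12336665 to 20339665 counts, and floors cover counting error only. Promoters and transcripts are on GRCm38 and were not converted to mm39.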

Additional observations from a re-analysis of the deposited data

Results flagged for a closer look

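Serpinf1 in formoterol library M49 had 444.9 CPM, while the other 4 formoterol libraries had 545.5 to 564.4 CPM. The gap to the nearest of them was 0.842 of the range of the group, above the limit of 0.71 set for 5 samples. Serpina7 in formoterol library M50 had 123.2 CPM, against 168.8 to 184.6 CPM in the other 4, a gap of 0.742 of the range. Serpina7, the gene of thyroxine-binding globulin, is the member of clade A that lies on the X chromosome. A library this far from its group is found in about 5% of groups by chance, which is 2.8 of the 56 groups looked at, and 2 were found.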

How the results depend on the processing

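With all 9 libraries edgeR called 0 genes, 0 serpins and 0 genes of the related lists. Testing every gene with at least 1 count gave 263, 2 and 4 calls, DESeq2 gave 316, 3 and 10, and limma-voom with sample quality weights gave 1374, 9 and 29. Leaving out 1 library at a time gave 0 to 702 calls over all genes, 0 to 6 among serpins and 0 to 14 in the related lists, with each highest count reached without M49. Members whose groups do not overlap numbered 1 with all libraries, 0 under upper-quartile factors and 1 to 12 with 1 library left out. The median serpin log2 fold change was 0.248 and stayed positive, at 0.09 under library totals and between 0.191 and 0.312 with 1 library left out. Log2 fold changes turned negative for Serpina12 (−0.025 under upper-quartile factors and −0.14 under library totals), Serpina3m (−0.00248 under upper-quartile factors, −0.118 under library totals and −0.00871 under quality weights), Serpina6 (−0.07999 under library totals), Serpinb6a (−0.073 under library totals and −0.014 under quality weights) and Serpinb8 (−0.10 under library totals). With 1 library left out they ranged from −0.15 to 0.25 for Serpina12, −0.15 to 0.19 for Serpina3m, −0.030 to 0.26 for Serpina6, −0.10 to 0.22 for Serpinb6a, −0.18 to 0.53 for Serpinb6b, −0.14 to 0.32 for Serpinb8 and −0.66 to 0.014 for Serpinh1. The cause of these shifts was not tested. No paired analysis was possible because the columns carry no replicate numbers. Serpins of a few CPM, such as most of clade B, rest on few counts per library.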
